A study of Mus musculus with 36 samples.

Results

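The genes described here are 8 genes of the reproductive steroid and neuropeptide system of the mouse hypothalamus: Kiss1, Tac2, Esr1, Esr2, Pgr, Prlr, Greb1 and Cyp19a1. They were taken by symbol from the deposited count matrix, 8 of its 24265 genes, and all 8 passed the filter on low counts that left 20053 genes for testing. RNA was measured by bulk sequencing of polyA libraries from whole hypothalamus of 3 inbred strains: C57BL/6J, NZO/HlLtJ (a strain known for polygenic obesity) and CAST/EiJ (a strain derived from wild mice). Mice of each strain ate a control diet (10% fat with fiber) or a high-fat, high-sugar (HFHS) diet (44% fat with fiber). The diets ran from week 6 of age, and tissue was taken at week 15. Both sexes were sampled, which gives 12 groups of strain, diet and sex with 3 libraries each, 36 in all. All animals were labelled wild type with no other treatment. The labels give no stage of the estrous cycle for the females and do not say that the libraries of a group came from separate animals, so the p-values measure only the spread between these libraries, which may be technical.

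Kisspeptin, the product of Kiss1, drives the neurons that release gonadotropin-releasing hormone (GnRH). Kisspeptin neurons of the arcuate nucleus also make neurokinin B, the product of Tac2, and dynorphin, and these peptides act together to set the GnRH pulse. A separate group of kisspeptin neurons in the preoptic region of rodents is known to be larger in females. Esr1 and Esr2 encode the estrogen receptors alpha and beta, and Pgr the progesterone receptor, which estrogen can induce. Prlr encodes the prolactin receptor, which signals through JAK2 and STAT5. Greb1 encodes a cofactor of estrogen receptor signalling that was first known as an estrogen-induced gene, and Cyp19a1 encodes aromatase, which makes estrogen from androgen.

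The members lie on 5 chromosomes of the GRCm38 build, at the positions given in the deposited table. Tac2 spans chr10:127724478-127731767 on the plus strand and Esr1 chr10:4611593-5005614 on the plus strand. Esr2 spans chr12:76120419-76177259 and Greb1 chr12:16670615-16800886, both on the minus strand. Pgr spans chr9:8899833-8968611 on the plus strand and Cyp19a1 chr9:54165937-54193442 on the minus strand. Prlr spans chr15:10177238-10349180 on the plus strand. The deposited Kiss1 row (ENSMUSG00000102367) spans chr1:133309827-133329722 on the plus strand, which is the span of the annotated read-through gene Gm28040 and overlaps the neighbouring gene Golt1a. Its counts may therefore hold reads of these genes, although Gm28040 and Golt1a have rows of their own with medians of 0.035 and 0.0498 CPM (counts per 1000000 counts of the library). Greb1 overlaps the antisense gene Gm48140, and reads of the pair cannot be told apart without knowing whether strand was used in counting.

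Kiss1, Tac2, Esr1 and Greb1 are the members that passed the test for a sex difference below, so the DNA just upstream of their RefSeq starts is shown for these 4. The windows are 250 bases long before the start, from GRCm38.p6, printed 5′ to 3′ on the gene's strand, without the bases that lie in an annotated exon. That leaves chr1:133326962-133327134 (plus strand) for Kiss1, chr10:127724228-127724477 (plus) for Tac2, chr10:4709908-4710154 (plus) for the second start of Esr1, and chr12:16800887-16801136 (minus) for the first start of Greb1. The window of the first Esr1 start lies wholly in an annotated Esr1 exon and is not printed. Capitals mark an estrogen response half-site, GGTCA or TGACC, searched on both strands.
Kiss1: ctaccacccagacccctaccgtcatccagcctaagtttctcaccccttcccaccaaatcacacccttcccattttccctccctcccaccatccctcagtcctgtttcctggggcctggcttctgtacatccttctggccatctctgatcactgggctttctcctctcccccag
Tac2: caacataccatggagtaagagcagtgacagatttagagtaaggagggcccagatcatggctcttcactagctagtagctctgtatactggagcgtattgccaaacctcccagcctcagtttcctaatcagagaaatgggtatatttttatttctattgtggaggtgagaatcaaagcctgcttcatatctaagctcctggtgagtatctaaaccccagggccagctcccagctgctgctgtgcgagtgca
Esr1, second start: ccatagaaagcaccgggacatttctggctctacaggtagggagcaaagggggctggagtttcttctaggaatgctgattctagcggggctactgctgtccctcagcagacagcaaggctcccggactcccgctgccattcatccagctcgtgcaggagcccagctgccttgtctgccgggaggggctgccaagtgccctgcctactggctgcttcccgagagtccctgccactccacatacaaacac
Greb1, first start: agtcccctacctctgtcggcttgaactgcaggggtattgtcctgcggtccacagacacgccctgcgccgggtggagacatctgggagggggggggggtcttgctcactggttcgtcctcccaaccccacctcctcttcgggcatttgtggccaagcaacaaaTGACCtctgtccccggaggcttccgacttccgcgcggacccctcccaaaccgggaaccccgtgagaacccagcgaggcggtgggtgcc

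RefSeq held starts for all 8 members, with 14 windows in all, and 6 of the 14 contained a half-site. Of all 32851 windows of this length, 35.2% contained one, so the motif is common. The printed Greb1 window carried 1 half-site, whose first base lies 88 bases before the start, and the Kiss1 window carried 2, at 65 and 36 bases, in its exonic part. Esr2 also carried 2, and the second Greb1 start 2. The windows of Tac2, Esr1, Pgr and Prlr held none. The full palindrome GGTCANNNTGACC was in none of the members' windows and in 0.0639% of all windows. These matches describe letters only, not binding.

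Levels between genes were compared as CPM per kilobase of the longest annotated transcript (mean ± SD, n = 36), with the transcripts of Gm28040 taken for the Kiss1 row of the same span. Tac2 was highest at 18.3 ± 5.05. Pgr (5.59 ± 1.11), Prlr (5.46 ± 1.05) and Esr1 (4.74 ± 1.35) followed, and these 3 did not differ beyond their spread. Per kilobase of all annotated exons Pgr (4.5 ± 0.895) and Esr1 (2.2 ± 0.628) differed by more than their spreads, with Prlr between them (3.52 ± 0.676). Greb1 (1.02 ± 0.285) and Kiss1 (0.832 ± 0.569) came next and overlapped, followed by Esr2 at 0.427 ± 0.153. Cyp19a1 was lowest at 0.127 ± 0.0643. Precision follows the counts, which have another order than the levels per length. Prlr had 1051 to 3401 counts per library and Esr1 512 to 2064, while Kiss1 had 0 to 81 (median 15) and Cyp19a1 1 to 21 (median 10). All other levels below are CPM scaled by the TMM library factors.

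The smallest library held 23.9 M counts, the largest 47.3 M, and the median library 34.6 M. All 14 hypothalamic markers checked, such as Pmch, Avp and Hcrt, were detected in every library, with a summed level of 567 to 2040 CPM. The library CAST/EiJ control female 1 stood apart. Its summed pituitary hormone and pituitary factor level (10 genes tested) was 2480 CPM against at most 298 CPM in any other library, with Prl, the pituitary hormone prolactin, at 1330 CPM. It was also highest for 8 of the 14 hypothalamic markers and for tanycyte and ependyma markers (478 CPM). Results also given without it include the Tac2 sex difference and the Prlr strain difference on control diet. The Prlr sex and diet differences in CAST/EiJ, the Prlr joint tests and all correlations are given only with it.

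**Figure D1:**
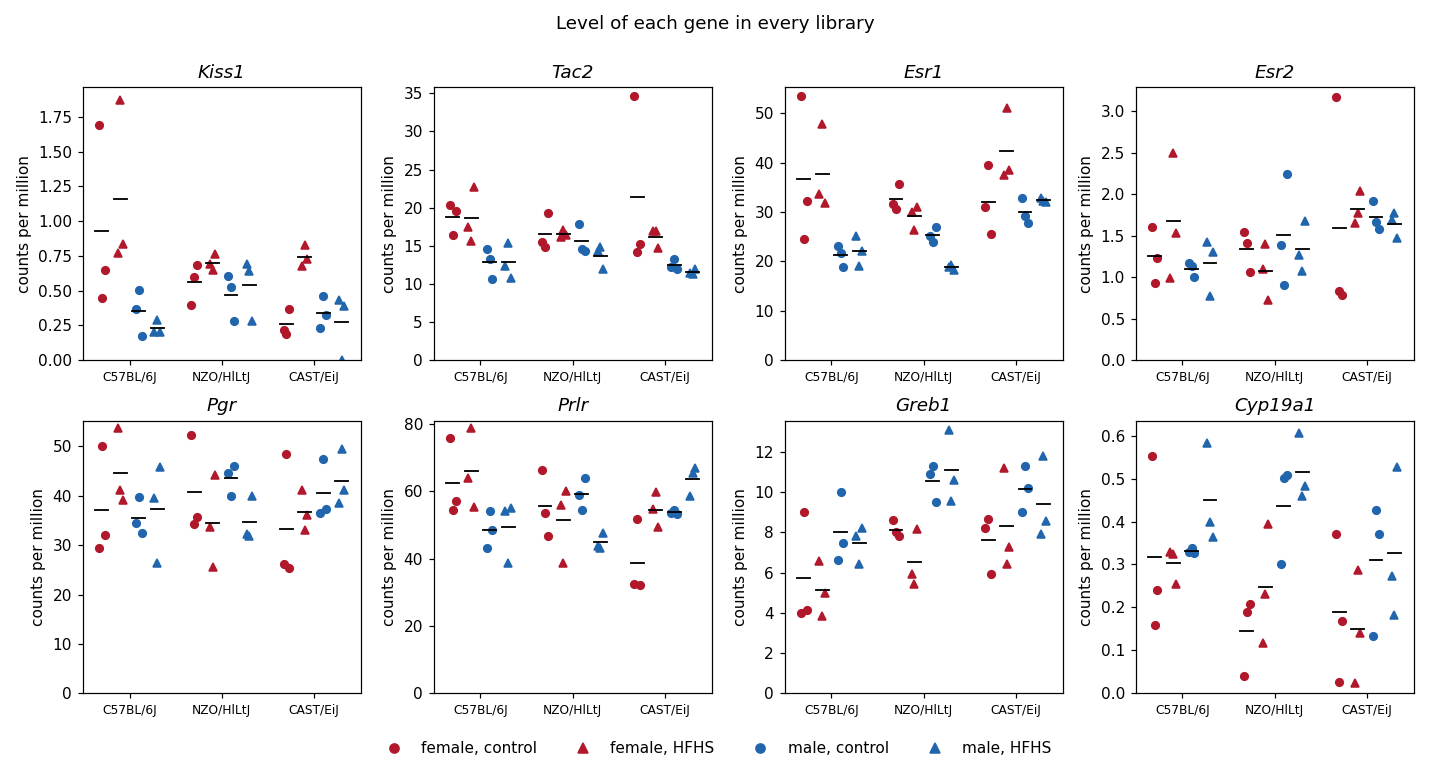
Level of each of the 8 genes (CPM, vertical axis of each panel) in all 36 libraries, by strain; red points are females, blue points males, circles control diet, triangles HFHS diet, and bars are group means. Esr1 and Tac2 sit higher in females and Greb1 lower, and the Tac2 value of 34.6 CPM belongs to CAST/EiJ control female 1.

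Across the 3 strains, females had more Esr1 and Tac2 RNA than males and less Greb1 RNA, and these 3 of the 8 members passed the test (edgeR's quasi-likelihood test, Benjamini-Hochberg adjusted p under 0.05 over all 20053 genes). DESeq2 called 4 of the 8 and limma 3. In the same contrast 0.175% of all genes passed, 0.105% higher and 0.0698% lower in females. The members' shares were 2 of 8 higher and 1 of 8 lower. The members were chosen with earlier results of these data known, so their excess over that background is no support. In bulk tissue, fewer cells of a type and less RNA per cell cannot be told apart, here and in every result below.

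Esr1, the main estrogen receptor of the hypothalamus, was 35.1 ± 8.32 CPM in females and 25 ± 5.26 in males (SD, n = 18 each). The averaged difference was 0.51 ± 0.076 on the log2 scale (SE), a 1.42-fold higher level in females, with adjusted p = 0.000207 by edgeR's quasi-likelihood test. In C57BL/6J the female values ran from 24.6 to 53.5 CPM and the male values from 18.8 to 25.2. The highest were control female 1 at 53.5 and HFHS female 2 at 47.8, and only control female 2 at 24.6 lay inside the male range. This strain passed the test on its own (0.79 ± 0.13 log2, adjusted p = 0.00155). In NZO/HlLtJ the females ran from 26.4 to 35.6 CPM and the males from 18.3 to 26.9, so the sexes met only at their edges, with a difference of 0.50 ± 0.13 log2 (adjusted p = 0.402). In CAST/EiJ the ranges overlapped, at 25.6 to 51 CPM in females and 27.7 to 32.9 in males. There the difference was 0.24 ± 0.13 log2 (adjusted p = 0.307). The size of the Esr1 difference was not shown to vary between strains (joint test of strain by sex, adjusted p = 0.383).

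Esr1 moved with markers of the preoptic area, a region rich in estrogen receptor. The summed level of 6 preoptic markers was highest in CAST/EiJ HFHS female 2 (118 CPM) and C57BL/6J control female 1 (114). The mean log2 CPM of these markers, another measure than the sum, correlated with log2 CPM of Esr1. The r was 0.61 over the 36 libraries and 0.72 after the group means were removed. These points share libraries and their scaling. The sum mostly follows Calcr, Gal and Nts, with medians of 34.1, 22.9 and 15 CPM. Calcr was also the gene most like Esr1 within groups (r = 0.84). Moxd1, Calcr, Gal and Nts are also among the genes known for sex differences read below, so the markers are not of place alone. By edgeR's quasi-likelihood test 0 of the 6 markers passed for sex in any strain (1 in C57BL/6J and 0 in the others at an unadjusted 0.05), and their median difference was 0.33 log2 in C57BL/6J and −0.02 and 0.03 in NZO/HlLtJ and CAST/EiJ. Summed levels were 66.6 to 118 CPM in females (median 82.1) and 67.8 to 99.6 in males (median 80.5). With the preoptic markers as a covariate the averaged Esr1 difference was 0.46 log2 (adjusted p = 5.14e-06), and in C57BL/6J it was 0.53 (adjusted p = 0.022). Without the 2 C57BL/6J females with the most Esr1, the C57BL/6J difference was 0.50 log2 (adjusted p = 0.045). These 2 were picked after seeing the data for their high values, so a smaller difference was fixed in advance.

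Tac2 was 18 ± 4.68 CPM in females and 13.1 ± 1.89 in males (SD, n = 18 each). The averaged difference was 0.45 ± 0.085 log2, a 1.37-fold higher level in females (adjusted p = 0.00763). In C57BL/6J the females ran from 15.6 to 22.7 CPM and the males from 10.6 to 15.4. In CAST/EiJ they ran from 14.2 to 34.6 and from 11.3 to 13.2. The sexes did not overlap in these strains, but in neither did Tac2 pass the test, with 0.54 ± 0.15 log2 (adjusted p = 0.219) in C57BL/6J and 0.63 ± 0.15 (adjusted p = 0.0586) in CAST/EiJ. The CAST/EiJ difference was 0.36 log2 (adjusted p = 0.211) without control female 1. In NZO/HlLtJ they did overlap, at 14.8 to 19.3 CPM in females and 12 to 17.8 in males (0.18 ± 0.15 log2, adjusted p = 0.965).

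The highest Tac2 value, 34.6 CPM, was in the library rich in pituitary RNA, CAST/EiJ control female 1; the other CAST/EiJ females lay between 14.2 and 16.9 CPM. Without that library the averaged sex difference was 0.36 log2 (adjusted p = 0.000505), and with the pituitary markers as a covariate it was 0.38 (adjusted p = 0.00998). Without it Tac2 also passed within C57BL/6J, at 0.54 log2 (adjusted p = 0.00368).

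Kiss1 was 0.724 ± 0.432 CPM in females and 0.367 ± 0.182 in males (SD, n = 18 each). Its averaged difference of 0.91 ± 0.23 log2 did not pass (adjusted p = 0.126, and 0.0243 by DESeq2). In C57BL/6J the control females had 1.69, 0.446 and 0.65 CPM and the HFHS females 0.767, 1.87 and 0.835. The C57BL/6J males had 0.365, 0.507 and 0.176 CPM on control diet and 0.204, 0.285 and 0.203 on HFHS diet. A single female, control female 2 at 0.446, lay below the highest male. The means were 1.04 ± 0.589 and 0.29 ± 0.127 CPM (n = 6), a difference of 1.90 ± 0.41 log2 or 3.72-fold, which passed (adjusted p = 0.0387). With Esr1 this made 2 of 8 members in C57BL/6J, against 0.194% of all genes.

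The Kiss1 result in C57BL/6J was not stable to the choice of libraries: it was lost in 12 of the 36 fits that each left out a library (1.51 to 2.08 log2, adjusted p up to 0.249), among them fits without a library of another strain. Control female 1 and HFHS female 2 held the highest Kiss1 and the highest Esr1 of the strain, and also its highest preoptic marker sums (114 and 102 CPM, against 66.6 to 79.5 in its other 10 libraries). Without both, the difference was 1.23 log2 with adjusted p = 0.818, and with the preoptic markers as a covariate it was 1.44 (adjusted p = 0.521). Both libraries were picked after seeing the data for their high values, so a smaller difference without them was fixed in advance. Without control female 1 alone the adjusted p was 0.249, and without HFHS female 2 alone 0.232.

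In the other strains Kiss1 was less far apart. NZO/HlLtJ females had 0.63 ± 0.127 CPM and males 0.504 ± 0.18 (0.33 ± 0.38 log2, adjusted p = 0.981). CAST/EiJ females had 0.5 ± 0.279 and males 0.306 ± 0.171 (0.49 ± 0.42 log2, adjusted p = 0.546). In CAST/EiJ HFHS male 2 the Kiss1 row had 0 counts, which allows up to 0.109 CPM in that row. The Gm28040 row held 6 counts (0.218 CPM) there, and how reads were shared between the 2 rows was not given. The test of a difference between strains did not pass (strain by sex, adjusted p = 0.377).

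Greb1 was lower in females, at 6.9 ± 1.99 CPM against 9.47 ± 1.86 in males (SD, n = 18 each), opposite in sign to Esr1. The averaged difference was −0.46 ± 0.10 log2, a ratio of 0.725 (adjusted p = 0.0437). In NZO/HlLtJ the sexes did not overlap, with females at 5.45 to 8.6 CPM and males at 9.5 to 13.1, although the strain alone did not pass (−0.58 ± 0.17 log2, adjusted p = 0.659). C57BL/6J females ran from 3.86 to 9.02 CPM and males from 6.41 to 10, and without control female 2, at 9.02, the difference of −0.52 became −0.77 log2 (adjusted p = 0.0334). CAST/EiJ females ran from 5.94 to 11.2 CPM and males from 7.93 to 11.8 (−0.30 ± 0.17 log2, adjusted p = 0.348). The averaged result was close to the threshold: it was lost in 22 of the 36 fits that each left out a library (−0.55 to −0.44 log2, adjusted p up to 0.0901), but DESeq2 gave adjusted p = 0.00181.

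Cyp19a1 was also lower in females, at 0.225 ± 0.138 CPM against 0.395 ± 0.13 (n = 18 each), but its difference of −0.84 ± 0.26 log2 did not pass (adjusted p = 0.279). Its counts of at most 21 per library limit the precision. In NZO/HlLtJ the females had 0.0394 to 0.395 CPM and the males 0.301 to 0.606, the widest gap of the 3 strains (−1.27 ± 0.44 log2, adjusted p = 0.876).

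The other receptors showed no averaged sex difference that passed. Pgr was 37.9 ± 9.05 CPM in females and 39.1 ± 6.15 in males, with a 95% interval of −0.23 to 0.14 log2 for the difference. For Prlr (54.8 ± 12.5 and 53.2 ± 7.95 CPM) the interval was −0.11 to 0.17, and for Esr2 (1.46 ± 0.631 and 1.42 ± 0.379 CPM) it was −0.28 to 0.37. The highest Esr2 value, 3.17 CPM, was in CAST/EiJ control female 1, the library rich in pituitary RNA, whose fellow control females had 0.829 and 0.784. For Prlr the strains differed in sign. C57BL/6J females averaged 64.2 ± 10.7 CPM against 49 ± 6.79 in males (0.39 ± 0.12 log2, adjusted p = 0.348), and CAST/EiJ females 46.7 ± 11.7 against 58.7 ± 6.08 (−0.35 ± 0.12 log2, adjusted p = 0.142). Prlr had the smallest unadjusted p of the members in the joint test of strain by sex, 0.000684, but 0 of all genes and 0 members passed (adjusted p = 0.306 for Prlr), with 3 members and 2378 genes under an unadjusted 0.05 and 0 members by DESeq2 or limma. Without CAST/EiJ control female 2, at 51.7 CPM next to 32.4 and 32.2 in its group, the adjusted p was 0.00556. The 32.4 CPM was in CAST/EiJ control female 1, the library rich in pituitary RNA, and the result without that library is not given here.

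Within NZO/HlLtJ and CAST/EiJ, 0 members passed for sex by edgeR's quasi-likelihood test, and 0 by DESeq2 or limma. The background was 0.0698% of genes in NZO/HlLtJ and 0.185% in CAST/EiJ. Under an unadjusted p of 0.05 there were 3 members in NZO/HlLtJ, next to 5.23% of all genes, and 2 in CAST/EiJ, next to 18.9%. In CAST/EiJ, 3 members passed without control female 2 (Tac2 at 0.73 log2, Pgr at −0.45 and Prlr at −0.49, adjusted p = 0.00112, 0.0419 and 0.00475), and Tac2 passed without control female 3 (0.72 log2, adjusted p = 0.0216). The share of all genes that passed in these 2 fits is not given here, and the 0.185% of the full fit does not apply to them. The count of 3 is therefore no result about the members.

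**Figure D2:**
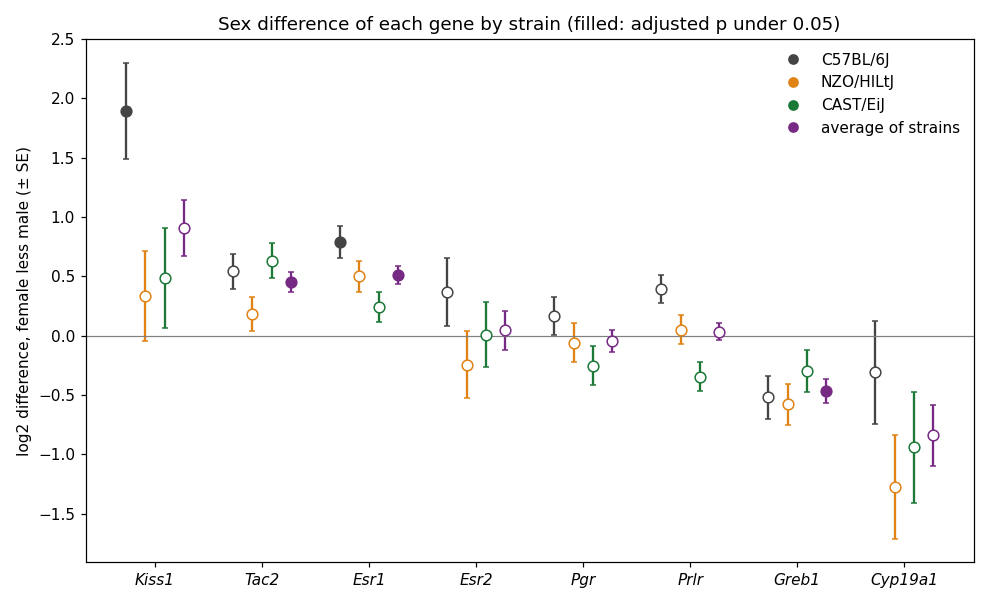
Difference between females and males (log2, female less male, ± SE) for each gene in each strain and averaged over the strains; filled points passed the adjusted threshold of 0.05. Esr1 and Tac2 lie above 0 in all 3 strains and Greb1 below, while Prlr lies above 0 in C57BL/6J and below it in CAST/EiJ.

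More genes differed between strains than between the sexes. CAST/EiJ differed from each of the other strains in 42.5% to 43.1% of genes and NZO/HlLtJ from C57BL/6J in 15.8% to 17.7%. Of the 8 members, 0 to 2 passed in a strain contrast, which with 8 genes is near the background and is no result about the members. Other cell-type markers also differed between strains. On HFHS diet the summed level of 8 oligodendrocyte markers was 2040 to 2810 CPM in CAST/EiJ, 3580 to 4180 in NZO/HlLtJ and 4270 to 6400 in C57BL/6J. That of 8 astrocyte markers was 2510 to 3140 CPM in NZO/HlLtJ and 1730 to 1880 in CAST/EiJ. That of 12 choroid plexus markers was 275 to 349 CPM in CAST/EiJ against 147 to 234 in the other strains. The choroid plexus sum mostly follows 1 gene, Tmem72, at 100 to 319 CPM over all libraries (median 143). The next highest median of that list was 26.6 CPM (Clic6), and Ttr, at a median of 0.635, was highest in an NZO/HlLtJ library. The part of oligodendrocyte and astrocyte RNA in the strain differences of the members was not tested.

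Esr1 gave the clearest strain difference. On HFHS diet it was 24 ± 5.88 CPM in NZO/HlLtJ and 37.3 ± 7.22 in CAST/EiJ (SD, n = 6), with ranges of 18.3 to 31.1 and 32 to 51 that did not overlap (−0.66 ± 0.13 log2, adjusted p = 0.000125, against a background of 43.1%). On control diet the same pair differed by −0.11 log2 (adjusted p = 0.538). CAST/EiJ was also above C57BL/6J on HFHS diet (37.3 against 29.9 ± 10.4 CPM, 0.36 ± 0.13 log2, adjusted p = 0.027, background 42.5%), a call lost in 5 of the 36 fits that each left out a library (0.28 to 0.49 log2, adjusted p up to 0.109) and with choroid plexus markers as a covariate (adjusted p = 0.0741). The preoptic markers moved the same way: of the 6, 5 were lower and 1 higher in NZO/HlLtJ than CAST/EiJ on HFHS diet. With them as a covariate the first difference was −0.49 log2 (adjusted p = 0.000224) and the second 0.08 (adjusted p = 0.626). The direction was not particular to preoptic markers. On HFHS diet the summed cortex and hippocampus markers were 139 to 148 CPM in NZO/HlLtJ and 181 to 235 in CAST/EiJ. The striatum medians were 223 and 246 CPM. The arcuate and ventromedial markers went the other way, with medians of 231 and 216 CPM.

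Prlr changed order with diet. NZO/HlLtJ was higher than CAST/EiJ on control diet (57.4 ± 7.28 against 46.3 ± 10.9 CPM, 0.33 ± 0.12 log2, adjusted p = 0.0291, background 42.9%) and lower on HFHS diet (48.3 ± 8.17 against 59.1 ± 6.56, −0.29 ± 0.12 log2, adjusted p = 0.0496). The control-diet result was lost without CAST/EiJ control female 1 (0.28 log2, adjusted p = 0.0762) and with pituitary markers as a covariate (0.19, adjusted p = 0.386). The HFHS result was lost in 18 of the 36 fits that each left out a library, with adjusted p up to 0.137. The joint test of strain by diet gave adjusted p = 0.147 for Prlr by edgeR's quasi-likelihood test and 0.0482 by DESeq2.

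Greb1 was higher in CAST/EiJ than C57BL/6J on HFHS diet (8.87 ± 2.17 against 6.32 ± 1.66 CPM, 0.52 ± 0.18 log2, adjusted p = 0.0183). This was lost without CAST/EiJ HFHS female 1 or HFHS male 2 (0.38 to 0.64 log2 over all left-out libraries, adjusted p up to 0.0939). NZO/HlLtJ exceeded C57BL/6J in Greb1 by 0.46 log2 on each diet without passing (adjusted p = 0.0718 on control and 0.078 on HFHS diet). By edgeR's quasi-likelihood test 0 members passed between NZO/HlLtJ and C57BL/6J on control diet (background 17.7%) or on HFHS diet (15.8%). On control diet Greb1 was the 1 member at an unadjusted 0.05 (28.8% of genes), and the 1 called by DESeq2 and by limma. On HFHS diet there were 2 members unadjusted (26.7% of genes), 1 by DESeq2 and 0 by limma. None passed between CAST/EiJ and C57BL/6J on control diet (background 42.6%, 1 by DESeq2, 0 by limma), with 3 members and 49.9% of genes unadjusted. Kiss1 differed there by −0.93 log2 (adjusted p = 0.0758, and 0.0486 by DESeq2). Tac2, Esr2, Pgr and Cyp19a1 passed in no strain contrast of this fit. On control diet Tac2 passed with its direction turned in some alternatives: CAST/EiJ against C57BL/6J went from 0.07 to −0.51 log2 with pituitary markers as a covariate (adjusted p = 0.048), and NZO/HlLtJ against CAST/EiJ from −0.02 to 0.26 without CAST/EiJ control female 1 (adjusted p = 0.0412).

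**Figure D3:**
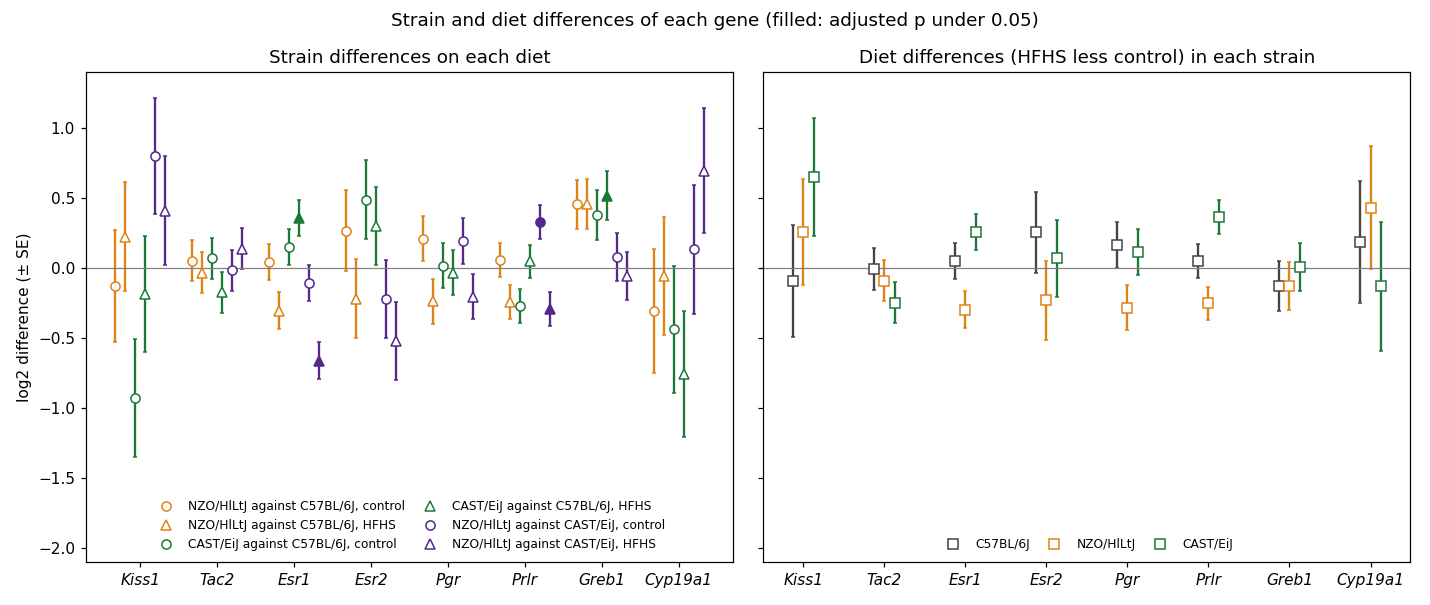
Log2 differences (± SE) of the 8 genes between strains on each diet (left) and between HFHS and control diet in each strain (right); filled points passed the adjusted threshold of 0.05. In the strain contrasts Esr1 shows the largest filled difference, −0.66 log2 for NZO/HlLtJ against CAST/EiJ on HFHS diet, and no diet contrast has a filled point.

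No member passed the test for diet in any strain, although alternatives below gave a call for Esr1 and for Prlr. By edgeR's quasi-likelihood test 0 members passed in C57BL/6J (0% of genes passed), NZO/HlLtJ (0.145%), CAST/EiJ (0.12%) or averaged over the strains (0.0299%). By DESeq2 or limma 0 passed as well. At an unadjusted 0.05 there were 0, 2, 1 and 0 members in these contrasts. The shares of all genes there were 3.43% (687 genes), 10.4%, 17.3% and 6.16%. The largest estimates were those of the low-count genes, Kiss1 in CAST/EiJ (0.65 ± 0.42 log2, adjusted p = 0.43) and Cyp19a1 in NZO/HlLtJ (0.43 ± 0.44, adjusted p = 0.82). Prlr in CAST/EiJ was 59.1 ± 6.56 CPM on HFHS diet and 46.3 ± 10.9 on control diet (0.37 ± 0.12 log2, adjusted p = 0.134). The HFHS libraries ran from 49.3 to 66.9 CPM, and the low control values were females 1 and 3 at 32.4 and 32.2. Without control female 2 the difference was 0.51 log2 with adjusted p = 0.00406. Control female 1 is the library rich in pituitary RNA, and the difference without it is not given here.

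In NZO/HlLtJ the diet difference was −0.30 log2 for Esr1 (adjusted p = 0.42), −0.28 for Pgr (adjusted p = 0.576), −0.25 for Prlr (adjusted p = 0.468) and −0.23 for Esr2 (adjusted p = 0.871). NZO/HlLtJ males had 25.1, 24 and 26.9 CPM of Esr1 on control diet and 18.8, 19.3 and 18.3 on HFHS diet, which did not overlap. The females had 31.7, 30.5 and 35.6 CPM and 30, 26.4 and 31.1, which did. When the NZO/HlLtJ libraries were compared alone, the Esr1 difference passed (adjusted p = 0.0287). In CAST/EiJ the females alone were apart in Kiss1, with 0.216, 0.187 and 0.364 CPM on control diet and 0.679, 0.829 and 0.726 on HFHS diet. The CAST/EiJ contrast of Kiss1 over both sexes did not pass, as given above. Prlr was also apart in NZO/HlLtJ males (54.5 to 64 CPM on control diet, 43.1 to 47.7 on HFHS diet). So it was in CAST/EiJ males (53.3 to 54.4 and 58.7 to 66.9 CPM), and Cyp19a1 in C57BL/6J males (0.326 to 0.338 and 0.365 to 0.584 CPM). For every other member, strain and sex the diets overlapped. With 3 libraries per diet such gaps can arise by chance, and their share over all genes is not given here. In the joint test of diet by sex Kiss1 had adjusted p = 0.857 and Esr1 0.906, and 0 members passed (0.00499% of genes). At an unadjusted 0.05 there were 0 members and 5.19% of genes. Blood markers also differed with diet in CAST/EiJ, with 4 of 8 lower on HFHS diet (504 to 1770 CPM summed on control diet, 197 to 340 on HFHS diet), and their part in these values was not tested.

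Genes of the same pathways were read from 6 lists. For sex averaged over the strains, 0 of 18 tested genes of the kisspeptin and tachykinin circuit passed (2 at an unadjusted 0.05), 0 of 16 other steroid and orphan nuclear receptors (1 unadjusted), 0 of 20 receptor coregulators and chaperones (1 unadjusted) and 0 of 17 steroid synthesis genes (2 unadjusted). Of all genes 8.92% were under an unadjusted 0.05 in this contrast. The list medians were −0.01, −0.04, −0.01 and 0.05 log2, next to 0.004 over all genes. The sex difference of Tac2 was thus not shared at the threshold by Tacr3, the neurokinin B receptor, or Pdyn, which encodes the dynorphin precursor.

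Of 14 genes of prolactin and cytokine receptor signalling, 1 was higher in females over the strains and 2 in C57BL/6J. These were Socs2 and Cish, feedback inhibitors that STAT5 induces. In C57BL/6J Socs2 was 15.3 ± 3.57 CPM in females and 8.04 ± 1.41 in males (SD, n = 6, 0.92 ± 0.13 log2, adjusted p = 8.33e-05), and Cish 10.8 ± 2.31 and 6.41 ± 1.56 (0.74 ± 0.12 log2, adjusted p = 0.000822). Of 18 genes known for sex differences in mouse hypothalamus or amygdala, 1 passed over the strains: Sytl4, which encodes a vesicle protein, was lower in females (44.8 ± 4.57 against 55.2 ± 4.72 CPM, −0.30 log2, adjusted p = 1.17e-05). In CAST/EiJ it was Sytl4 again (44.2 ± 4.14 against 55.8 ± 2.9 CPM, adjusted p = 0.0198, with 0.185% of all genes passing). In NZO/HlLtJ, 1 of these 18 passed, Avp, the vasopressin gene, at 75.6 ± 22 CPM in females and 165 ± 61.1 in males (adjusted p = 0.0231, 0.0698% of all genes passing).

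Between strains, the lists' counts are read against the share of all genes. In CAST/EiJ against C57BL/6J on control diet, where 42.6% of all genes passed, 10 of 17 steroid synthesis genes did so, 6 higher and 4 lower (list median 0.08 log2). The largest difference named there was in Star, the carrier of cholesterol into mitochondria, at 1.96 ± 0.501 against 6.37 ± 0.607 CPM (SD, n = 6, adjusted p = 3.47e-12). Of the 18 circuit genes 4 were higher and 2 lower, which is below the share of all genes, among them Tacr3 at 22.3 ± 1.8 against 15.9 ± 1.72 CPM (adjusted p = 3.19e-05). Fkbp5, a chaperone of steroid receptors that glucocorticoid induces, was 74.6 ± 19 against 36.4 ± 8.78 CPM (adjusted p = 1.9e-06). For diet, 1 gene over all lists and strains passed: Fkbp4, a chaperone of progesterone and other steroid receptors, was lower on HFHS diet in NZO/HlLtJ (136 ± 4.89 against 170 ± 13.5 CPM, −0.32 log2, adjusted p = 0.0335).

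**Figure D4:**
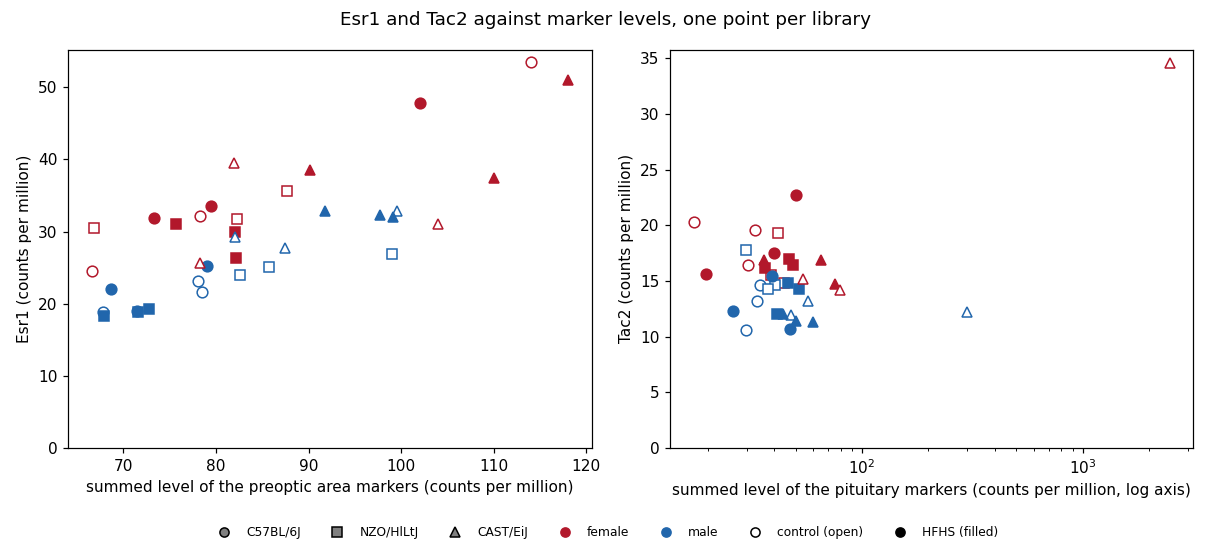
Left, Esr1 (CPM) against the summed level of 6 preoptic area markers (CPM) in the 36 libraries; right, Tac2 (CPM) against the summed level of 10 pituitary markers (CPM, log axis). Circles are C57BL/6J, squares NZO/HlLtJ and triangles CAST/EiJ, open for control and filled for HFHS diet, red for females and blue for males; the 3 highest Esr1 values, 53.5, 51 and 47.8 CPM, lie at preoptic sums of 114, 118 and 102 CPM, and the Tac2 value of 34.6 CPM lies at a pituitary sum of 2480 CPM.

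Members were compared with each other over the 36 libraries, as a description of libraries that share strain, sex and scaling (Pearson's r of log2 CPM). After the 12 group means were removed, Pgr and Greb1 correlated at 0.70, Esr1 and Prlr at 0.65, and Pgr and Prlr at 0.60, the highest of all member pairs. Other receptor pairs showed less: Esr1 and Pgr were at 0, Esr2 and Pgr at −0.19, Esr2 and Prlr at 0.09, and Esr1 and Esr2 at 0.32. Esr1 and Greb1 were opposed, at −0.45 over all libraries and −0.39 within groups. Kiss1 and Tac2, which arcuate neurons make together, correlated at 0.44 over all libraries but at 0.16 within groups.

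Among 13675 genes with a mean of at least 1 CPM, the genes most like Esr1 included Kdm5c (r = 0.82) and Efna5 (0.77) over all libraries, and Calcr (0.84), AW551984 (0.82) and Npy2r (0.78) within groups. Calcr, the calcitonin receptor, is also among the preoptic markers. Prlr was most like Gpr165 both ways (0.87 each). Pgr was most like Ago3 (0.87) over all libraries and C77370 (0.90) within groups. For Tac2 the nearest were Ftl1 (0.77) and, within groups, Gnb2l1 (0.88), and for Greb1 Rxfp1 (0.64) and AF529169 (0.80). Esr2 was most like Dnah9 (0.72), a ciliary dynein gene, and within groups Rpap2 (0.79). Tac2 and Esr2 were both highest in CAST/EiJ control female 1 (34.6 and 3.17 CPM), and their neighbours were not computed without it. Within groups Tac2 and Esr2 correlated at 0.37, but at −0.01 by Spearman's rank correlation. The low-count members had weaker neighbours: Kiss1 was most like Adamts1 (0.59) and Hsf1 (0.66 within groups), and Cyp19a1 most like the Y-linked gene Kdm5d (0.58) and Svil (0.67 within groups).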

How the data were processed

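Expected counts per gene, deposited by the authors for 36 libraries, were used after rounding to whole numbers: 21.4% of the values are not whole (tolerance 1e-06), and rounding moved no library total by more than 0.000186%. Whole counts had been assumed when the design was set. The authors also deposited log2-scale variance-stabilized values (DESeq2, per the submitters' processing notes), used here only as an alternative. The build is GRCm38, per the submitters' processing notes. The aligner, counter, annotation and strand setting were not given in the sources used here. Every deposited gene is above 0 in at least 19 libraries.

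Genes were tested with edgeR 4.0.16 in R 4.3.3 (TMM, filterByExpr, quasi-likelihood F-test) in a fit of 12 group means over all 36 libraries with 24 residual degrees of freedom, and p-values were adjusted over 20053 genes (Benjamini-Hochberg, threshold 0.05). Group levels are CPM, and log2 CPM for correlations used a prior count of 2. Fits with DESeq2 1.42.0 and limma 3.58.1, other filters, size factors, marker covariates (mean log2 CPM of a list) and left-out libraries were alternatives. On simulated data for the averaged sex contrast (19675 genes), 97 of 100 genes changed 1.5-fold and 100 of 100 changed 2-fold were recovered, with 10 false calls. The changed genes all had means above 1 CPM, so the simulation does not cover Kiss1 (0.545 CPM) or Cyp19a1 (0.31 CPM). In the real contrast 35 genes passed, fewer than were changed in the simulation, which makes the adjusted threshold stricter there.

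The 8 members and all lists were chosen with earlier results of these data known. Text genes are the members, up to 4 passing genes with the smallest p per list and contrast, and the 3 genes most correlated with each member, of which the nearest are given.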

Additional observations from a re-analysis of the deposited data

Results flagged for a closer look

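In each of the 6 groups of strain and diet (6 libraries each), a library was picked out for a member when its gap to the nearest other library exceeded Dixon's 95% critical share of the whole range. Of 48 such groups 3 held a library of this kind, and chance alone gives about 1 in 20.

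Tac2 was 34.6 CPM in CAST/EiJ control female 1, and the nearest library of its group had 15.2. The same library held 1330 CPM of Prl. Kiss1 was 0 CPM in CAST/EiJ HFHS male 2, where the nearest library had 0.386. The log2 value of this 0, and so the size of its gap, depends on the prior count. Kiss1 was 0.284 CPM in NZO/HlLtJ HFHS male 3, where the nearest had 0.638. The Gm28040 row held 0.218 CPM in CAST/EiJ HFHS male 2 and 0.17 in NZO/HlLtJ HFHS male 3, next to a median of 0.035 over all libraries. The causes were not tested.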

How the results depend on the processing

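The averaged sex differences of Esr1 and Tac2 and the Esr1 difference between NZO/HlLtJ and CAST/EiJ on HFHS diet passed in all 36 fits that each left out a library, at 0.44 to 0.54, 0.36 to 0.48 and −0.71 to −0.57 log2. Leaving out libraries, the number of members that passed for sex was 2 to 3 averaged over the strains, 1 to 3 in C57BL/6J, 0 to 0 in NZO/HlLtJ and 0 to 3 in CAST/EiJ. For diet it was 0 to 1 in CAST/EiJ and 0 to 0 in C57BL/6J, NZO/HlLtJ and the average. For strain on control diet it was 0 to 1 (NZO/HlLtJ against C57BL/6J), 0 to 3 (CAST/EiJ against C57BL/6J) and 0 to 2 (NZO/HlLtJ against CAST/EiJ). On HFHS diet these were 0 to 1, 1 to 2 and 1 to 2. The joint tests gave 0 to 1 (strain by diet), 0 to 1 (strain by sex) and 0 to 0 (diet by sex). The shares of all genes that passed in these fits are not given here.

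Directions turned for Tac2 on control diet. CAST/EiJ against C57BL/6J went from 0.07 to −0.51 log2 (adjusted p = 0.048) with pituitary markers as a covariate. NZO/HlLtJ against CAST/EiJ went from −0.02 to 0.26 (adjusted p = 0.0412) without CAST/EiJ control female 1 (−0.12 to 0.26 over all left-out libraries). The cause was not tested.

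Other settings changed the number of members that passed. For NZO/HlLtJ against CAST/EiJ on HFHS diet it was 1 rather than 2 with median-ratio size factors, no filter, the strict filter (1 CPM in 18 libraries), choroid plexus markers or preoptic markers as covariates, with Prlr at −0.29, −0.29, −0.29, −0.34 and −0.23 log2. For sex in C57BL/6J it was 1 rather than 2 with the strict filter, with preoptic markers and without the 2 females named above (the last 2 were chosen after seeing the data), and 0 when the C57BL/6J libraries were compared alone. It was 1 rather than 2 for CAST/EiJ against C57BL/6J on HFHS diet with choroid plexus markers, and 0 rather than 1 for NZO/HlLtJ against CAST/EiJ on control diet with pituitary markers. It was 1 rather than 0 for CAST/EiJ against C57BL/6J on control diet (pituitary markers, DESeq2, preoptic markers, without the 2 females), NZO/HlLtJ against C57BL/6J on control diet (limma, DESeq2, preoptic markers), sex in NZO/HlLtJ (libraries alone, preoptic markers, without the 2 females), sex in CAST/EiJ (preoptic markers), diet in NZO/HlLtJ (libraries alone) and strain by diet (DESeq2). For NZO/HlLtJ against C57BL/6J on HFHS diet it was 2 with libraries alone or preoptic markers and 1 with DESeq2. The averaged Greb1 sex difference had adjusted p = 0.102 with choroid plexus, 0.0543 with pituitary and 0.056 with preoptic markers. Summing the Kiss1 and Gm28040 rows, an alternative chosen after seeing the data, gave 1.45 log2 for sex in C57BL/6J (adjusted p = 0.0474). Per kilobase of all exons, Tac2 was 11.3, Pgr 4.5, Prlr 3.52 and Esr1 2.2 CPM.

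No paired analysis was possible because the labels carry no replicate numbers. Depth limits Kiss1 and Cyp19a1, whose medians are 15 and 10 counts per library.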
